A study of Homo sapiens with 54 samples.

Results

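The comparison described here asks what the compound OSU-ERb-12 (OSU below) did to RNA levels in prostate cancer cells that already received enzalutamide (Enza). It sets 9 libraries of OSU with Enza against 9 libraries of Enza alone, 3 of each in LNCaP, C4-2 and 22Rv1, out of 54 libraries in the series, and the members were chosen by treatment label only. All libraries of these groups received 1 µM Enza for 12 h, and the combination also received 100 nM OSU. Other groups used below, of the same 3 lines and with 3 libraries each, received ethanol as vehicle, 100 nM OSU alone, or 100 nM 17-beta-estradiol (E2) with 1 µM Enza. Per the labels the groups are biological triplicates of unmodified cells, grown in serum-containing medium. Each line is a single established cell line, and nothing further in the labels says how its triplicates were separated, so that p-values measure the spread between these libraries. In the titles the combination libraries carry the letters WT in place of the compound's name, and the libraries of OSU alone, which carry the same letters, have the compound in their treatment label.

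Androgens drive the expression of a set of genes in luminal prostate cells, among them the kallikrein proteases and other secreted or membrane proteins of the prostate. Enzalutamide is a prostate cancer drug that blocks androgen signalling and so keeps these genes from being activated. OSU-ERb-12 is an agonist selective for estrogen receptor beta, the receptor encoded by ESR2, whereas E2 is the natural ligand of both estrogen receptors. LNCaP was established from a lymph node metastasis and responds to androgen, C4-2 was derived from it and grows without testicular androgen, and 22Rv1 was grown from a xenograft that had relapsed after castration.

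Reads assigned to genes numbered between 36145657 and 46741438 per library of Enza and between 33412021 and 47482389 per library of OSU with Enza. Levels are counts per 1000000 reads (CPM), and differences are log2 fold changes of OSU with Enza against Enza on the log2(CPM + 0.5) scale, with the SE after ±. The luminal prostate markers KRT8, KRT18, HOXB13, FOLH1, FOXA1 and EPCAM lay over 10 CPM in every line, from 79.2 CPM for EPCAM in LNCaP to 969 CPM for FOLH1 in LNCaP. The basal cell marker KRT14 and the leukocyte marker CD14 lay under 1 CPM in every line. In LNCaP COL1A1, a fibroblast marker, was at 18.5 CPM, and the summed fibroblast markers ran from 18.3 to 21.1 CPM with Enza and from 19.5 to 21.8 CPM with OSU added. The share of reads in mitochondrially encoded mRNA was 3.28 to 4.71% with Enza and 2.58 to 4.05% with OSU and Enza.

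Adding OSU to Enza lowered 12 genes and raised 1 gene. Of the 12, the smallest p-values were those of the kallikreins KLK2 and KLK3, then SYT4 and the membrane protein genes STEAP2 and STEAP1. The changes of the 12 ran from -9.96% (MAOA) to -17.6% (SYT4). With the 3 lines as a block, 13 of 15573 genes passed an adjusted p of 0.05 (limma, Benjamini-Hochberg), which is 0.0835% of the genes tested. The 12 that fell (0.0771%) were KLK2, KLK3, SYT4, STEAP2, STEAP1, GRIN3A, MAOA, ADAMTS1, THBS1, ARHGAP6, FAM111B and FN1, and the 1 that rose (0.00642%) was DHRS2. No gene changed by 2-fold or more, and the called changes lay between 0.15 and 0.30 on the log2 scale in size. At an unadjusted p under 0.05 there were 1448 genes, where 779 are expected if nothing changed. The median 95% interval reached 0.0888 to either side of a gene's estimate (0.163 for genes at 1 to 10 CPM and 0.0571 for genes over 100 CPM), and the smallest called change was 0.151.

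**Figure D1:**
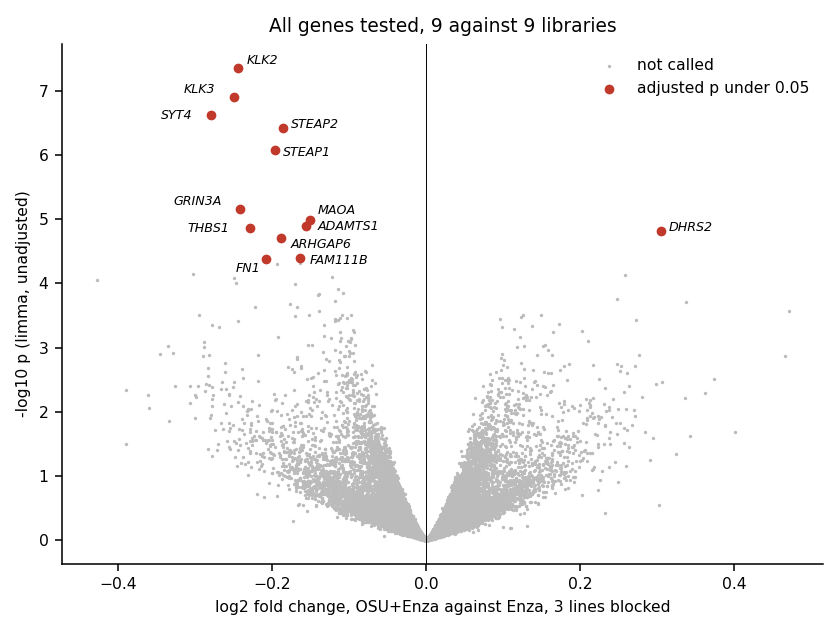
Log2 fold change of OSU with Enza against Enza (x axis, 3 lines blocked) and -log10 of the unadjusted limma p (y axis), 1 point for each of the 15573 genes tested. The 13 genes with an adjusted p under 0.05 are red and named: 12 lie left of 0 and DHRS2 lies right of it.

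The 2 smallest p-values belonged to the kallikreins KLK2 and KLK3, neighbouring genes on chromosome 19 and classical androgen-activated genes. KLK3 encodes prostate-specific antigen, the protease measured in blood as a marker of prostate disease, and KLK2 encodes a related trypsin-like protease. In the GRCh38.p14 annotation KLK3 (Entrez gene 354) lies at chr19:50854915-50860764 and KLK2 (Entrez gene 3817) at chr19:50873439-50880567, both on the + strand. Because both fell together, the 250 bases before each start (RefSeq, GRCh38.p14, + strand, 5′ to 3′) are shown, KLK2 at chr19:50873189-50873438 and KLK3 at chr19:50854665-50854914, with capitals marking matches to androgen response element motifs.
KLK2: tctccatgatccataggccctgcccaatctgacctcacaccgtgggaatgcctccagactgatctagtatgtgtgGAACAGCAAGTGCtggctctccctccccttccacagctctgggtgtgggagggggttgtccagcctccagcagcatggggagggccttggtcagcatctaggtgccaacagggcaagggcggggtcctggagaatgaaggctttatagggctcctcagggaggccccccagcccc
KLK3: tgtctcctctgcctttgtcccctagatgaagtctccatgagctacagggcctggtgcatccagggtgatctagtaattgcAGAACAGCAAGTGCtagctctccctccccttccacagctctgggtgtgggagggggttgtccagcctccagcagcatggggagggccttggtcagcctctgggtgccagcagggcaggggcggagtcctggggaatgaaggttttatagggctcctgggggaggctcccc
The capitals hold the same 13 bases, GAACAGCAAGTGC, at -175 to -163 from the start of KLK2 and at -169 to -157 from that of KLK3, a match to GNACANNNNGTNC. That spacing motif was written with the known elements of these genes in view. It was found on either strand in 1.76% of 27305 such windows (1.42% of the 11954 of tested genes). Among the 11 windows of called genes it was in 2, these 2. The half-site AGAACA, which overlaps it, was in 12.4% of windows (7.66% of those of tested genes). Among the 11 windows of called genes AGAACA matched in KLK3 only. The full palindrome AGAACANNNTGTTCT matched 1 of the 27305 windows and none of the 11, and the estrogen response element GGTCANNNTGACC matched 0.0440% of all windows and none of the 11. Its half-site GGTCA was in 33.1% of windows (30.2% of those of tested genes) and, among these 11, in KLK2 and KLK3. Such matches are letters in a window and no measure of binding.

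KLK2 stood at 54.9, 48.2 and 52.1 CPM in the 3 LNCaP libraries with Enza and at 39.8, 43.8 and 42.9 CPM with OSU added. In C4-2 it stood at 179, 198 and 195 CPM with Enza and at 165, 158 and 172 CPM with OSU added. In 22Rv1 it stood at 16.3, 15.3 and 15.3 CPM with Enza and at 13.1, 12.8 and 13.9 CPM with OSU added. In each line all 3 libraries with OSU lay below all 3 without it. Over the 3 lines the log2 fold change of KLK2 was -0.24 ± 0.032 (a fall of 15.6%, limma adjusted p = 0.000674), and the line values were -0.29, -0.21 and -0.23 in LNCaP, C4-2 and 22Rv1.

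KLK3 was at 511, 467 and 503 CPM in LNCaP with Enza and at 385, 409.7 and 398 CPM with OSU added. The C4-2 libraries held 1443, 1529 and 1489 CPM of KLK3 with Enza and 1365, 1358 and 1445 CPM with OSU added. The 22Rv1 libraries held 5.85, 5.91 and 6.23 CPM with Enza and 4.5, 5.06 and 4.34 CPM with OSU added. The groups did not overlap in LNCaP and 22Rv1, and in C4-2 the highest library with OSU lay just above the lowest without it. For KLK3 the log2 fold change was -0.25 ± 0.035 (limma adjusted p = 0.000965), made up of -0.31 in LNCaP, -0.10 in C4-2 and -0.34 in 22Rv1. The unadjusted p for a difference between lines was 0.00358 and the adjusted p 0.763. KLK2 and KLK3 are similar in sequence, and how reads that fit both were counted is not given in the sources used here.

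STEAP1 and STEAP2 are 6-pass membrane proteins of prostate epithelium, and STEAP2 reduces iron and copper at the cell surface and in endosomes. Their genes are neighbours on chromosome 7 (STEAP1 at chr7:90154469-90164827 and STEAP2 at chr7:90211740-90243408 in GRCh38.p14). STEAP2 was at 504, 519 and 513 CPM in LNCaP with Enza and at 484, 472 and 477 CPM with OSU added. In C4-2 STEAP2 was at 345, 338 and 335 CPM against 302, 295 and 296 CPM with OSU, and in 22Rv1 at 46.2, 42 and 43.5 CPM against 36.3, 34.2 and 38.7 CPM with OSU. The groups were apart in all 3 lines. STEAP2 fell by 0.19 on the log2 scale (SE 0.028, limma adjusted p = 0.00148), with -0.10, -0.19 and -0.27 in LNCaP, C4-2 and 22Rv1.

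STEAP1 was at 174, 172 and 178 CPM in LNCaP with Enza and at 155, 164 and 166 CPM with OSU added. In C4-2 it was at 78.3, 80.5 and 83.8 CPM against 70.6, 69.1 and 74.7 CPM, and in 22Rv1 at 14.4, 13.3 and 13.6 CPM against 10.6, 11.5 and 11.3 CPM. Every library with OSU lay below every library of Enza alone in its line. STEAP1 fell by 0.20 on the log2 scale (SE 0.030, limma adjusted p = 0.00265). Reads of STEAP1 can be shared with its close copy STEAP1B, and reads of STEAP2 cannot be told apart from those of its antisense neighbour if counting ignored strand.

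Among the genes that fell were 2 better known from neurons. SYT4, a synaptotagmin of secretory vesicles, stood at 163, 151 and 154 CPM in LNCaP with Enza and at 117, 126 and 121 CPM with OSU added. In 22Rv1 SYT4 stood at 204, 216 and 190.4 CPM with Enza and at 150.0, 148 and 166 CPM with OSU added, again with no overlap. In C4-2 it stood at 239.8, 236 and 225 CPM with Enza and at 214, 217 and 233 CPM with OSU added, where the groups overlapped. The log2 fold change of SYT4 was -0.28 ± 0.040 (limma adjusted p = 0.00122), the largest fall among the called genes. Its line values were -0.37, -0.08 and -0.39 in LNCaP, C4-2 and 22Rv1, with an unadjusted p of 0.000396 and an adjusted p of 0.652 for a difference between lines.

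GRIN3A, a subunit of the NMDA-type glutamate receptor, was at 4.34, 4.76 and 4.11 CPM in LNCaP with Enza and at 3.41, 3.73 and 3.55 CPM with OSU added. In C4-2 GRIN3A was at 26.5, 27.5 and 27.5 CPM against 26.4, 24.7 and 23.4 CPM, and in 22Rv1 at 26.4, 25.2 and 25.4 CPM against 21.1, 19.4 and 20.4 CPM. The groups of GRIN3A did not overlap in any line, although in C4-2 the nearest libraries were almost equal. GRIN3A had a log2 fold change of -0.24 ± 0.043 (limma adjusted p = 0.0180), and it was not called with voom weights.

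**Figure D2:**
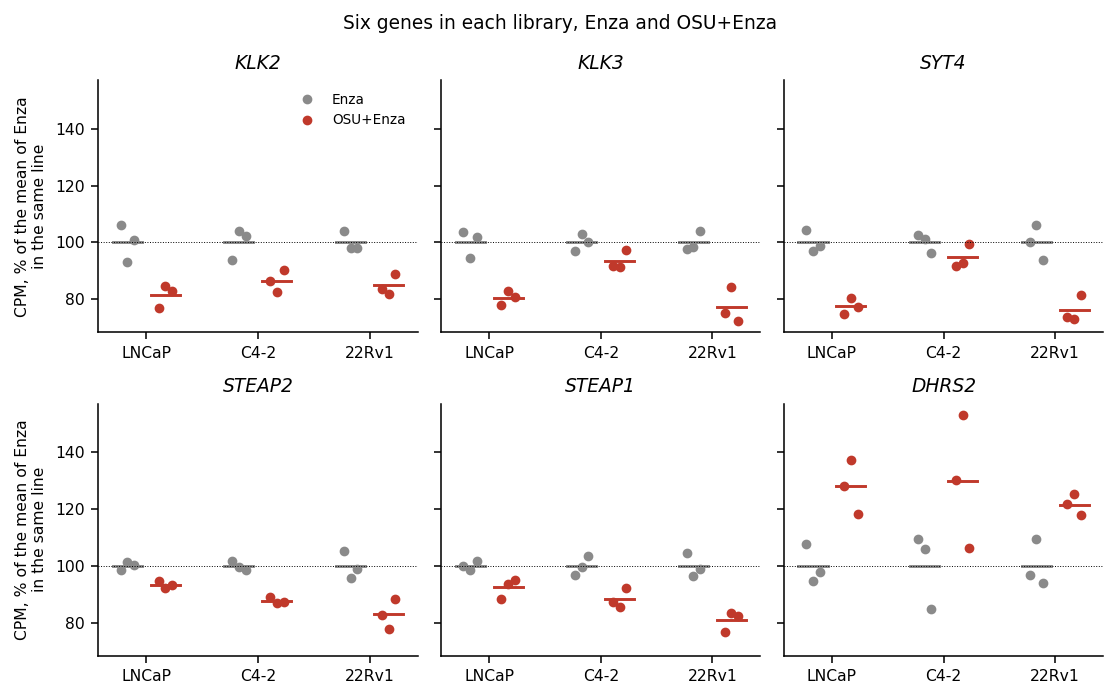
CPM of KLK2, KLK3, SYT4, STEAP2, STEAP1 and DHRS2 as a percentage of the Enza mean of the same line (y axis) in LNCaP, C4-2 and 22Rv1 (x axis), 1 point per library, with bars at the group means (n = 3). The points with OSU lie below those of Enza alone for the first 5 genes, apart from an overlap in C4-2 for KLK3 and SYT4, and above them for DHRS2, apart from an overlap in C4-2.

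Another 3 of the genes that fell, THBS1, FN1 and ADAMTS1, have secreted products. THBS1 encodes thrombospondin-1, a matrix glycoprotein that curbs vessel growth, FN1 encodes fibronectin, and ADAMTS1 encodes a secreted metalloprotease. THBS1 was at 43.4, 44.4 and 41.2 CPM in LNCaP with Enza and at 34.5, 39.0 and 38.7 CPM with OSU added, and in C4-2 at 52.9, 51.4 and 53.6 CPM against 47.4, 39.0 and 42.4 CPM. In 22Rv1 THBS1 was at 19.98, 19.7 and 19.9 CPM against 16.5, 15.6 and 20.1 CPM, so that 1 library with OSU reached the level of Enza alone. Over the lines THBS1 changed by -0.23 ± 0.043 (limma adjusted p = 0.0235).

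FN1 in LNCaP was at 388, 414 and 383 CPM with Enza and at 299.7, 335 and 362 CPM with OSU added, and in C4-2 at 648, 641 and 616 CPM against 559.8, 569 and 477 CPM. In 22Rv1 FN1 was at 31.5, 29.2 and 33.8 CPM against 29.9, 25.9 and 31.3 CPM, and only there did its groups overlap. FN1 fell by 0.21 on the log2 scale (SE 0.042, limma adjusted p = 0.0490). ADAMTS1 was at 162, 179.7 and 161 CPM against 138, 150.3 and 148 CPM in LNCaP, and at 336, 349 and 330.3 CPM against 301, 296 and 296 CPM in C4-2. In 22Rv1, where ADAMTS1 was at 14.7, 15.9 and 14.9 CPM against 13.9, 13.8 and 15.1 CPM, the groups overlapped. ADAMTS1 had a log2 fold change of -0.16 ± 0.029 (limma adjusted p = 0.0235).

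The remaining 3 genes that fell have separate roles, and for each of them the groups were apart in all 3 lines. For ARHGAP6 in 22Rv1 the nearest libraries were almost equal, at 28.26 CPM with Enza and 28.2 CPM with OSU added. MAOA, a mitochondrial enzyme that oxidises monoamine transmitters, had group means (± SD, n = 3) of 213 ± 8.34 and 191 ± 2.58 CPM without and with OSU in LNCaP, 272 ± 5.14 and 257 ± 4.07 CPM in C4-2, and 157 ± 11.6 and 135 ± 4.25 CPM in 22Rv1. ARHGAP6, a GTPase-activating protein, had means of 41.7 ± 0.923 and 38.3 ± 2.51 CPM, 84.9 ± 1.3 and 74.5 ± 2.65 CPM, and 32.3 ± 3.5 and 26.9 ± 1.24 CPM in the same order. FAM111B, a protease of the nucleus, had means of 106 ± 1.3 and 96.3 ± 6.40 CPM, 118 ± 0.448 and 112 ± 1.61 CPM, and 328 ± 10.7 and 270.2 ± 22.1 CPM. The log2 fold changes were -0.15, -0.19 and -0.16 for MAOA, ARHGAP6 and FAM111B, with limma adjusted p-values of 0.0231, 0.0279 and 0.0490.

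DHRS2, a short-chain dehydrogenase of mitochondria and nucleus, was the only gene called higher. It was at 7.87, 6.92 and 7.15 CPM in LNCaP with Enza and at 9.37, 10.1 and 8.66 CPM with OSU added, and in 22Rv1 at 45.2, 51.1 and 43.8 CPM against 56.8, 58.5 and 55.0 CPM. In C4-2, where DHRS2 was low, it was at 2.00, 1.93 and 1.54 CPM against 2.37, 2.79 and 1.94 CPM, and the groups overlapped there only. The log2 fold change of DHRS2 was 0.30 ± 0.057 (a rise of 23.5%, limma adjusted p = 0.0240), with 0.34, 0.30 and 0.28 in LNCaP, C4-2 and 22Rv1.

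Each of the 13 genes moved the same way in all 3 lines, as did 14.7% of all genes downward and 15.3% upward. In 7 of the 13, all lower, the groups were apart in every line, against 0.116% of all genes in that direction (0.0257% upward), and in all 13 they were apart in at least 2 lines, against 1.91% downward and 1.49% upward. These 13 were chosen by the same libraries, so that the shares describe them and do not test them. KLK2, KLK3, SYT4, STEAP2 and STEAP1 stayed called whichever of the 18 libraries was left out. The other 8 lost the call without some of the libraries, and the number called fell to 5 without LNCaP OSU+Enza 1, to 7 without 22Rv1 Enza 1 or C4-2 OSU+Enza 2, and to 8 without LNCaP Enza 2 or C4-2 Enza 2. It was 2 without the LNCaP libraries (STEAP2 and RNU4-2), 6 without C4-2 and 64 without 22Rv1.

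On the side of higher levels the next genes by p, with the same sign in every line, did not pass. IL1RAP, the co-receptor for interleukin-1, was at 14.2, 14.3 and 14.4 CPM against 15, 15 and 16.1 CPM in LNCaP, at 13.2, 10.6 and 12.3 CPM against 14.5, 14.9 and 14.5 CPM in C4-2, and at 1.97, 2.14 and 1.88 CPM against 3.03, 2.64 and 2.69 CPM in 22Rv1. Its groups were apart in all 3 lines, with a log2 fold change of 0.26 (95% interval 0.15 to 0.37, limma adjusted p = 0.0672). ID2, an inhibitor of helix-loop-helix factors, had 0.25 (adjusted p = 0.101), SHISA3 0.34 (0.105) and the small nuclear RNA RNU4-2 0.47 (0.120). NAP1L2, ARRDC4, CNNM2, HEXIM1 and FOXD1 had values of 0.15, 0.13, 0.12, 0.10 and 0.27 and an adjusted p of 0.120 each.

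ESR2, the gene of estrogen receptor beta, was low in every line. It was at 1.93, 1.61 and 1.22 CPM against 1.46, 1.49 and 1.93 CPM with OSU in LNCaP, at 1.74, 2.43 and 1.87 CPM against 1.85, 1.38 and 1.65 CPM in C4-2, and at 2.25, 1.71 and 2.40 CPM against 3.08, 2.79 and 2.81 CPM in 22Rv1. ESR2 overlapped between groups in LNCaP and C4-2 and was higher in every 22Rv1 library with OSU, where its log2 fold change was 0.38 ± 0.16 (limma adjusted p = 0.463). Over the 3 lines it was 0.06 (95% interval -0.14 to 0.26, limma adjusted p = 0.884). Of 24 steroid and other nuclear receptor genes none was called by limma, 5 had an unadjusted p under 0.05 and 0 were called with voom weights. Of the 24, 12 lay below 0 and 12 above. Over all genes 1448 of 15573 had an unadjusted p under 0.05, the background for such counts in this list and those below.

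Among 25 tested genes that androgen activates (28 listed), KLK2 and KLK3 were the 2 called lower and none was called higher, with 0.0771% of all genes called lower. Below 0 lay 18 and above it 7, with a median of -0.07, while over all genes 51.6% lay below 0 and the median was -0.00206. An unadjusted p under 0.05 was found for 7 of the 25, all lower and with KLK2 and KLK3 among them. With voom weights KLK2 and KLK3 were the 2 called. The kallikrein gene KLK4 had -0.10 (adjusted p = 0.342) and the acetylcholine receptor subunit CHRNA2 -0.20 (0.403), neither of them called. TMPRSS2, a membrane protease, had -0.07 (95% interval -0.14 to 0.01), the immunophilin gene FKBP5 -0.04 (-0.10 to 0.01) and the transporter gene SLC45A3 0.01 (-0.09 to 0.11). The list's median by line was 0.00233 in LNCaP, -0.01 in C4-2 and -0.13 in 22Rv1.

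Of 12 genes that androgen lowers, 10 lay below 0 as well, with a median of -0.07. None was called by limma, 3 had an unadjusted p under 0.05, and voom weights called 1, the opioid receptor gene OPRK1. Of these 12, UGT2B17, which conjugates androgens and shares reads with its copy UGT2B15, had the smallest p (-0.28, adjusted p = 0.131). Genes activated by estrogen receptors showed no calls among 17 tested by limma or with voom weights. Below 0 lay 13 of them, with a median of -0.07, and 7 had an unadjusted p under 0.05, 6 of them lower. The carbonic anhydrase gene CA12 had -0.11 (adjusted p = 0.203) with its groups apart in all lines, and GREB1, an early estrogen target, had -0.16 (95% interval -0.29 to -0.03, adjusted p = 0.441).

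**Figure D3:**
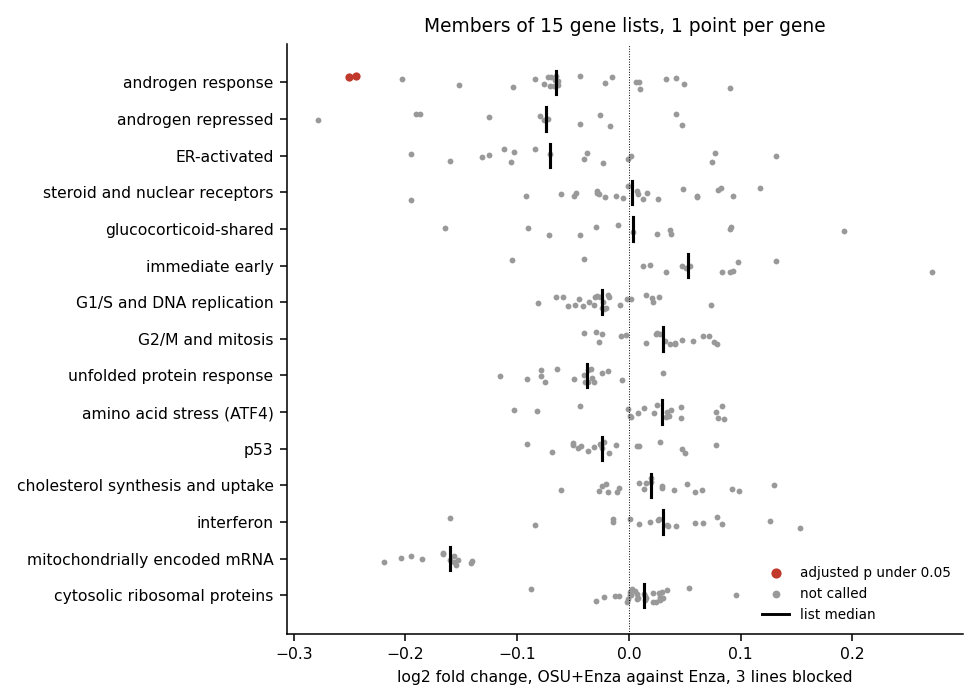
Log2 fold change of OSU with Enza against Enza (x axis, 3 lines blocked) for the tested members of 15 gene lists (y axis), 1 point per gene, with a black bar at each list's median and red points for genes with an adjusted p under 0.05. The red points are KLK2 and KLK3 in the androgen response list, and all 13 mitochondrially encoded mRNAs lie left of 0.

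Among lists of other functions limma called no gene apart from those already named. In the luminal prostate list (14 tested) KLK2 and KLK3 were the calls, and in the neuroendocrine list (6 tested) SYT4. For genes of the unfolded protein response 17 of 18 lay below 0, with a median of -0.04, 6 at an unadjusted p under 0.05 and 0 called with voom weights. By line 11 of 18 lay below 0 in LNCaP, 14 in C4-2 and 18 in 22Rv1, and 12 in OSU against vehicle. The chaperone gene HSPA5 had -0.08 (limma adjusted p = 0.305). For G1/S and DNA replication 20 of 26 lay below 0 (median -0.02), and for G2/M and mitosis 14 of 20 lay above it (median 0.03). Unadjusted p-values under 0.05 were found for 3 and 5 members, and voom weights called 0 in both lists. By line, G1/S genes below 0 were 24 of 26 in LNCaP, 14 in C4-2 and 14 in 22Rv1. In OSU against vehicle 24 of these 26 lay above 0. G2/M genes above 0 were 15, 17 and 14 of 20 in the same lines, and 16 in OSU against vehicle. Of 14 immediate early genes 12 lay above 0 (median 0.05, 5 at an unadjusted p under 0.05, 0 with voom weights), with FOS at 0.27 (limma adjusted p = 0.246). Above 0 were 10 of 12 in LNCaP, 5 of 10 in C4-2 and 13 of 15 in 22Rv1, and 6 of 15 in OSU against vehicle. Amino acid stress genes, interferon-induced genes and NRF2 targets lay above 0 in 16 of 20, 14 of 18 and 12 of 15 cases, with 4, 0 and 0 at an unadjusted p under 0.05 and 0 called with voom weights. Above 0 in LNCaP were 18 of 20, 9 of 16 and 15 of 15, and in C4-2 17 of 20, 11 of 12 and 11 of 15. In 22Rv1 it was 8 of 20, 8 of 12 and 3 of 15. Most amino acid stress genes and NRF2 targets thus lay below 0 in 22Rv1.

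The 13 mRNAs encoded by the mitochondrial genome lay below 0 in every case, from -0.22 to -0.14 with a median of -0.16. None was called by limma, 5 had an unadjusted p under 0.05, and voom weights called 1, COX3 (-0.15, limma adjusted p = 0.316). By line the median was -0.28 in LNCaP and -0.23 in C4-2, each with all 13 below 0, and 0.00861 in 22Rv1 with 6 below 0. In OSU against vehicle, which uses other libraries, all 13 lay below 0 too, with a median of -0.13. These transcripts are cut from shared precursors and are not separate measurements. Their part in the changes of the nuclear genes was not tested.

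Within single lines the calls were as few. In LNCaP 14 of 14251 genes were called (0.0982%), 13 lower (0.0912%) and 1 higher (0.00702%), with 1193 at an unadjusted p under 0.05 where 713 are expected from chance. The largest fall was that of NAV3, a microtubule-binding protein, at 18, 17.9 and 17.1 CPM with Enza and 11.8, 12.9 and 11.6 CPM with OSU added (-0.53 ± 0.076, limma adjusted p = 0.000563). SYT4 (-0.37), the collagen gene COL12A1 (-0.36), the bicarbonate transporter gene SLC4A4 (-0.31) and KLK3 (-0.31) followed, and FAM43A was higher (0.20 ± 0.040, limma adjusted p = 0.0264). Leaving out LNCaP OSU+Enza 1 left 6 genes called in this line and leaving out LNCaP Enza 1 left 9.

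In 22Rv1 15 of 14866 genes were called (0.101%), all lower, with 1382 at an unadjusted p under 0.05. By size these were led by GPR85, an orphan receptor (-0.46 ± 0.088, limma adjusted p = 0.0306), SYT4 (-0.39), the growth factor IGF1 (-0.36), GRIN3A (-0.33) and SLITRK6, a neuronal membrane protein (-0.31). The list also held STEAP1, STEAP2 and FAM111B from the 3 lines together, and MYC, the proliferation-promoting transcription factor, at -0.30. This count rested on single libraries. It was 0 without 22Rv1 Enza 1 or without 22Rv1 OSU+Enza 1, 1 (TNC, a matrix protein) without 22Rv1 Enza 2, 7 without 22Rv1 OSU+Enza 2 and 26 without 22Rv1 Enza 3.

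In C4-2 limma called 0 of 14027 genes, with 971 at an unadjusted p under 0.05 where 701 are expected from chance, and voom weights called 2, SLC4A4 and STEAP2. SLC4A4 was at 47.9, 46.4 and 48.0 CPM with Enza and at 38.2, 37.7 and 39.9 CPM with OSU added (-0.29 ± 0.050, limma adjusted p = 0.0517). Leaving out C4-2 OSU+Enza 1 led to 1 call (THBS1), as did leaving out C4-2 OSU+Enza 3 (RIN2). One C4-2 vehicle library, which shares in the estimate of the spread here, has a cell-line tag of 22Rv1 and a title of C4-2 and was kept as C4-2.

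The difference between lines was tested as such, and no gene passed (limma F test, 0 of 15573, 894 at an unadjusted p under 0.05 where 779 are expected from chance, 0 with voom weights). Of the 13 genes called over the lines, 5 had an unadjusted p under 0.05 in this F test: SYT4, KLK3, FAM111B, STEAP2 and STEAP1. FAM111B had -0.14, -0.07 and -0.28 in LNCaP, C4-2 and 22Rv1, and STEAP1 had -0.11, -0.18 and -0.30. The 0 calls do not show that the effect was the same in the lines. The smallest p belonged to DDIT4, an inhibitor of mTOR signalling, with 0.10 in LNCaP, 0.10 in C4-2 and -0.32 in 22Rv1 (adjusted p = 0.139). SLC4A4 came next, with -0.31, -0.29 and 0.29 in the same order (adjusted p = 0.139). In 22Rv1 SLC4A4 was low, at 4.29, 3.46 and 3.08 CPM with Enza and at 4.67, 4.01 and 4.82 CPM with OSU added, and the groups overlapped. DDIT4 and SLC4A4 both passed without 22Rv1 Enza 1 and without 22Rv1 OSU+Enza 2, and NETO1 passed without 22Rv1 OSU+Enza 1. Across genes the fold changes of LNCaP and C4-2 had a Pearson r of 0.256 (13593 genes), those of LNCaP and 22Rv1 0.0388 (13331) and those of C4-2 and 22Rv1 -0.0732 (13201), where genes are not independent replicates. Over genes above 10 CPM the values were 0.365, 0.150 and 0.0131 in the same order, so that the sign for C4-2 and 22Rv1 turned.

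OSU was also compared with vehicle, in 18 libraries that hold none of the 18 above. The C4-2 vehicle library with the 22Rv1 tag is among them, and without it limma again called 0 genes, with 1177 at an unadjusted p under 0.05. Limma called 0 of 15602 genes there, with 1045 at an unadjusted p under 0.05 where 780 are expected from chance, and voom weights called 3, RNF145, INPP4B and COLCA1. RNF145, a ubiquitin ligase of the endoplasmic reticulum, had the smallest p (-0.16 ± 0.030, limma adjusted p = 0.148) and was called without LNCaP vehicle 1 or without C4-2 OSU 3. Of the 13 genes called with Enza, 8 had the same sign without it, as had 54.2% of all genes. For 7 the 95% interval without Enza excluded 0 in the same direction: KLK2 (-0.14, -0.21 to -0.08), KLK3 (-0.13, -0.22 to -0.04), SYT4 (-0.10, -0.16 to -0.04), STEAP2 (-0.09, -0.15 to -0.04), STEAP1 (-0.08, -0.13 to -0.02), MAOA (-0.05, -0.09 to -0.01) and DHRS2 (0.13, 0.03 to 0.24). These intervals are not adjusted for the number of genes.

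GRIN3A, THBS1, FN1, ARHGAP6 and FAM111B had intervals without Enza that held 0, and for GRIN3A it ran from -0.05 to 0.14. For ADAMTS1 it lay just above 0 (0.07, 0.000997 to 0.133), opposite to its fall with Enza. The 13 genes were chosen for their change with Enza, which favours larger values there than without it, so the gap between the values with and without Enza is no measure of a dependence on Enza.

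**Figure D4:**
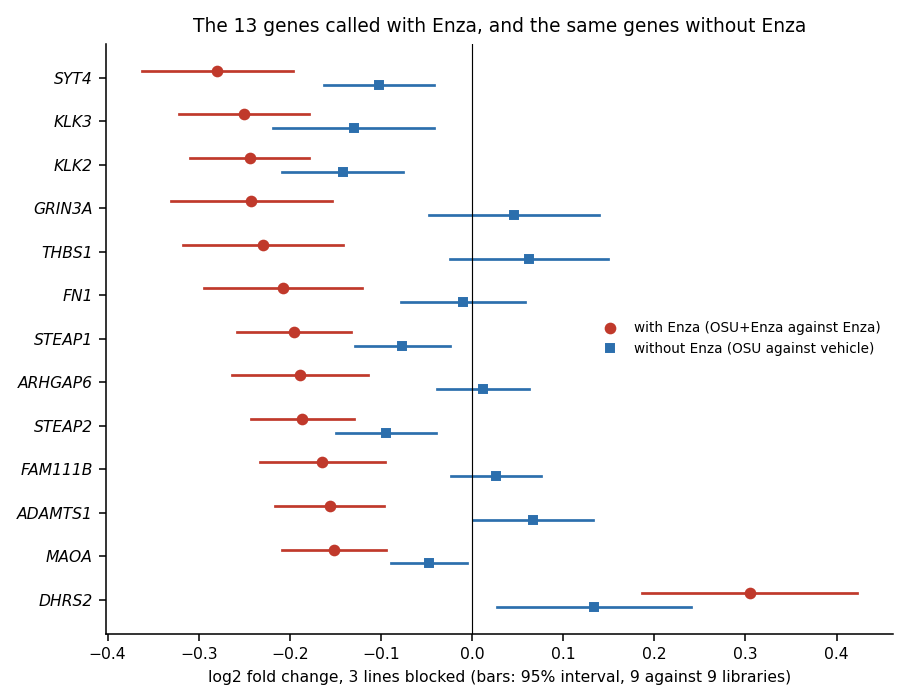
Log2 fold change with its 95% interval (x axis) of the 13 genes called with Enza (y axis), for OSU with Enza against Enza (red) and OSU against vehicle (blue), each from 9 against 9 libraries with lines blocked. For KLK2, KLK3, SYT4, STEAP1, STEAP2 and MAOA both intervals lie below 0, and for GRIN3A, THBS1, FN1, ARHGAP6 and FAM111B the interval without Enza holds 0.

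Whether the effect of OSU depended on Enza was tested directly over 36 libraries, and limma called 0 of 15884 genes, with 742 at an unadjusted p under 0.05 where 794 are expected from chance, and 0 with voom weights. The median 95% interval of this difference reached 0.133 to either side. Among the 13 genes, whose choice by the change with Enza favours a difference in this test, 7 had an unadjusted limma p under 0.05. These were ADAMTS1, ARHGAP6, FAM111B, MAOA, SYT4, FN1 and DHRS2. ADAMTS1 had -0.22 (95% interval -0.35 to -0.09) and ARHGAP6 -0.20 (-0.31 to -0.09), each with a limma adjusted p of 0.963. For KLK2 the difference was -0.10 (-0.43 to 0.22) and for KLK3 -0.12 (-0.36 to 0.12), intervals that hold both no difference and one as large as the effect itself. This fit takes the response to Enza as equal in the lines, so that differences between lines in that response enter its spread and widen its intervals. For KLK2 the SE of the difference was 0.16, against 0.032 for OSU added to Enza and 0.032 for OSU against vehicle. The 0 calls therefore do not show that the effect of OSU is the same with and without Enza. In 1 fit of all 54 libraries with a mean for each group, ADAMTS1 and GRIN3A were called, and without 22Rv1 SLC4A4 was. Without the C4-2 vehicle library tagged as 22Rv1, 0 genes were called by limma, with 753 at an unadjusted p under 0.05.

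The levels over treatments place these falls beside those seen with Enza. KLK2 in LNCaP had means (± SD, n = 3) of 178 ± 4.78 CPM with vehicle, 161 ± 4.95 with OSU, 51.7 ± 3.37 with Enza and 42.1 ± 2.10 with both. KLK3 in LNCaP had 1115 ± 37.0, 1033 ± 19.4, 494 ± 23.4 and 398 ± 12.4 CPM in the same order. Both were lowest with OSU and Enza together.
THBS1 in LNCaP had 110.2 ± 15.6 CPM with vehicle and 123 ± 5.14 with OSU, against 43.0 ± 1.64 with Enza and 37.4 ± 2.52 with both. GRIN3A in C4-2 had 58.8 ± 3.70 and 63.2 ± 3.37 CPM without Enza, against 27.2 ± 0.549 and 24.9 ± 1.52 CPM with it. In the 1 line given for each of these 2 genes, OSU alone had the highest of the 4 means. Over the 3 lines OSU against vehicle was 0.06 (95% interval -0.02 to 0.15) for THBS1 and 0.05 (-0.05 to 0.14) for GRIN3A. Both intervals hold 0. SYT4 in LNCaP differed, with 130.0 ± 3.85 CPM with vehicle, 112 ± 1.29 with OSU, 156 ± 6.20 with Enza and 121 ± 4.59 with both, so that its highest level was with Enza. Enza against vehicle shares its Enza libraries with the comparison above and was not tested here.

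OSU and E2 were both given at 100 nM with 1 µM Enza for 12 h, and these 2 combinations differed widely. Limma called 2108 of 15564 genes (13.5%) between them, 884 higher with OSU (5.68%) and 1224 lower (7.86%), of which 45 differed by 2-fold or more. With scaling to total reads the split was 1022 higher and 964 lower. Without LNCaP 727 genes were called. The smallest p-values belonged to androgen-activated genes that were lower with OSU and Enza, SLC45A3 at -2.45 ± 0.039 and PMEPA1, an inhibitor of TGF-beta signalling, at -2.24 ± 0.038 (limma adjusted p = 2.5e-22 and 4.8e-22). All 27 tested genes of the androgen response list were called lower, with a median of -1.17. For OSU added to Enza the median of this list was -0.07 (25 tested), and SLC45A3 had 0.01. The gap between the 2 combinations is therefore not the size of the effect of OSU on top of Enza. E2 with Enza was not compared with Enza alone here. Higher with OSU and Enza were SYTL2, a vesicle-trafficking protein (0.56), the adhesion protein gene AMIGO2 (1.13) and ACP3, the gene of prostatic acid phosphatase (0.94).

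Of the 13 genes called for OSU on top of Enza, 10 were called lower with OSU and Enza than with E2 and Enza, as were 7.86% of all genes. Both comparisons use the same 9 libraries of OSU with Enza, in which 12 of the 13 were called for being low, so that nothing is read from this count. KLK2 in LNCaP was at 42.1 ± 2.10 CPM with OSU and Enza and at 222 ± 5.97 CPM with E2 and Enza. With Enza alone KLK2 was at 54.9, 48.2 and 52.1 CPM in the LNCaP libraries. Over the 3 lines the difference of KLK2 between the 2 combinations was -1.72 ± 0.11 (limma adjusted p = 2.2e-10). STEAP2 in 22Rv1 was at 36.4 ± 2.26 CPM against 114 ± 5.95 CPM, with a difference over the lines of -0.81 ± 0.13 (limma adjusted p = 0.000123). SYT4 was the 1 gene called higher (0.24 ± 0.041), at 121 ± 4.59 CPM against 103 ± 3.35 CPM in LNCaP. DHRS2 (0.04 ± 0.080, limma adjusted p = 0.803) and ADAMTS1 (-0.17 ± 0.065, limma adjusted p = 0.0865) were not called.

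**Figure D5:**
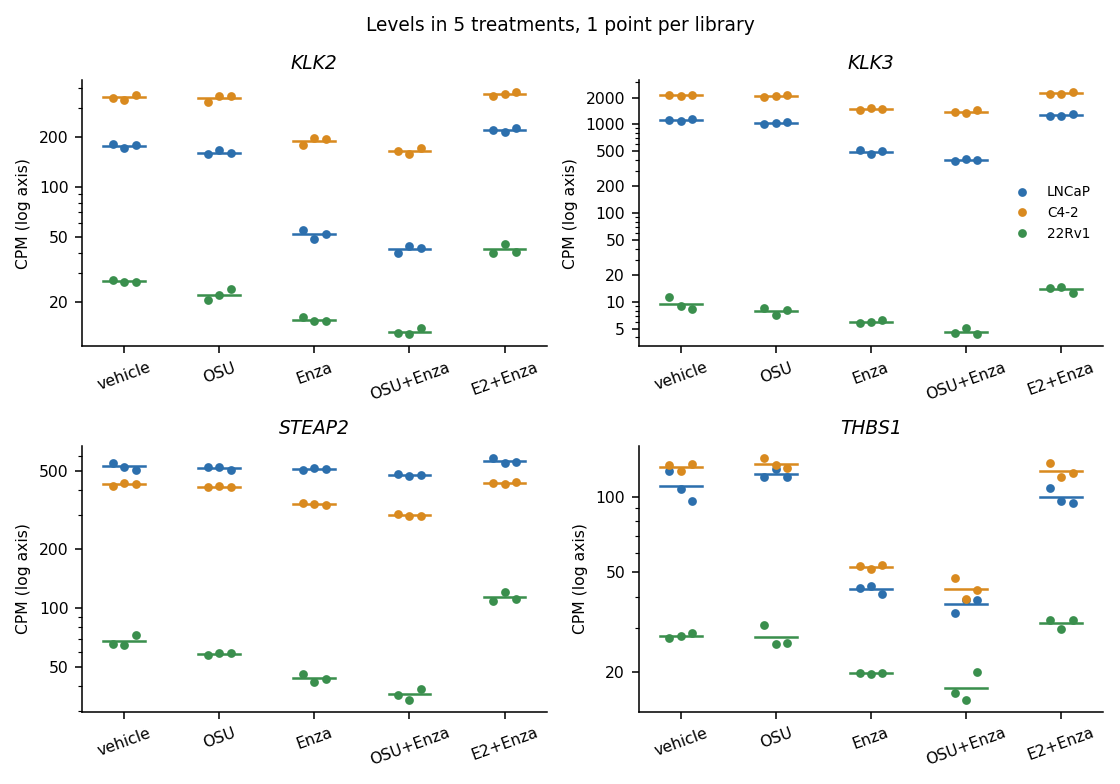
CPM on a log axis (y axis) of KLK2, KLK3, STEAP2 and THBS1 with vehicle, OSU, Enza, OSU with Enza and E2 with Enza (x axis), 1 point per library coloured by line, with bars at the means of 3 libraries. In each line the mean with OSU and Enza is the lowest of the 5 for all 4 genes, 42.1 CPM for KLK2 in LNCaP against 222 CPM with E2 and Enza.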

How the data were processed

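Total RNA of 3 cell lines under 6 treatments was sequenced in 54 libraries. Per the submitters' processing notes the authors used FastQC, Trimmomatic, featureCounts and edgeR with hg38, and the design text names Rsubread; no versions of these tools are given there. The deposited table is labelled CPM, but the values the authors deposited are a score. It is the log2 of CPM, after 0.5 reads were added to each count, rescaled within each library to a column total of 1000000. This was read from the values, and whole reads were recovered for 100% of them (tolerance 0.01), 32819568 to 52417050 per library. CPM was computed from these reads and the authors' effective library sizes. Of 19225 rows, 18917 matched a symbol of RefSeq GRCh38.p14, which also gave coordinates and promoter windows (11 of 13 called genes).

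A gene was tested where 3 or more of the fitted libraries held at least 1 CPM of it. The test was limma-trend (limma 3.58.1 under R 4.3.3) on log2(CPM + 0.5), two-sided, with Benjamini-Hochberg adjustment within a comparison and a threshold of 0.05. Lines were a block; each single line was fitted over its 18 libraries. The log2 fold change understates changes of low genes. Scripts were tested on simulated data. Named genes were the 10 largest called changes each way, filled by smallest p with the same sign in every line, 5 each way in other comparisons, set genes such as ESR2, and up to 4 members of each list; MAOA, ADAMTS1, MYC, TNC and the genes named from alternatives fell outside it and were chosen after their values were seen. Some genes are not reported here. The members and lists were chosen with earlier results of these data known. Alternatives were other pseudocounts, no filter, TMM factors, scaling to total reads, voom weights, a replicate block, 1 fit of all libraries, and leaving out each library or line. Cyclic loess, and leaving out 22Rv1 Enza 3 and 22Rv1 OSU+Enza 2, the libraries least correlated with their own group, were added after seeing the data.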

Additional observations from a re-analysis of the deposited data

How the results depend on the processing

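Among the named genes no fold change past the threshold changed sign under any alternative, and the signs of other genes were not compared. The 13 genes called for OSU added to Enza became 52 with voom weights, 71 in 1 fit of all 54 libraries, 26 with cyclic loess, 2 without LNCaP, 6 without C4-2, 64 without 22Rv1, and 5 to 15 when each library was left out. Without 22Rv1 Enza 3 and 22Rv1 OSU+Enza 2 there were 12, 8 of them shared. KLK2, KLK3 and SYT4 lost the call only without LNCaP, and STEAP2 only without C4-2, of 31 alternatives. FAM111B kept it in 8 and FN1 in 10. GRIN3A lost the call with voom weights, although these called 52 genes, and when any of the lines was left out. MAOA and FAM111B lost it with the replicate block. In LNCaP 14 became 2 (KLK2 and SYT4) in the fit of all libraries and 6 to 15 without single libraries. In C4-2 0 became 2 (SLC4A4 and STEAP2) with a pseudocount of 2 CPM, TMM factors, scaling to total reads or voom weights, 1 (TAPBPL) in the fit of all libraries, and 0 to 1 without single libraries (THBS1 or RIN2). In 22Rv1 15 became 1 with no filter (TNC), 24 with TMM factors, 9 with voom weights, 86 in the fit of all libraries, 28 with cyclic loess, and 0 to 26 without single libraries. The F test called 1 gene in the fit of all libraries (SLC4A4), and 0 to 2 without single libraries. The dependence on Enza gave 2 in the fit of all libraries, 1 without 22Rv1 and 0 to 0 without single libraries. OSU against vehicle gave 1 with scaling to total reads (RNF145), 3 with voom weights, 2 with cyclic loess (LRIG1 and RNF145), 2 without 22Rv1 (LPCAT1 and RNR1), and 0 to 1 without single libraries. OSU with Enza against E2 with Enza gave 3275 genes in the fit of all libraries, 727 without LNCaP, and 1669 to 2149 without single libraries. The cause of these shifts was not tested, except that fits without libraries or lines have fewer samples.

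No pairing by replicate number was seen in the values. Over 9 pairs of same-numbered libraries the correlation of deviations from the group means ran from -0.178 to 0.155, and 2 of the 9 correlated best with their own number. Deviations within a group of 3 sum to 0, so these correlations cannot show that the libraries were prepared unpaired. With the replicate block OSU added to Enza gave 13 genes (11 shared), 22Rv1 alone 9, the F test 1 (DDIT4), OSU against vehicle 3 (RNF145 and the mitochondrial ND3 and RNR2), and OSU with Enza against E2 with Enza 1730. Precision was lowest for genes under 1 CPM, whose median 95% interval reached 0.189 to either side.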

Other observations

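Over 9783 protein-coding genes the fold change of OSU added to Enza had a Pearson r of -0.149 with the log10 of gene length, and that of OSU against vehicle, from other libraries, -0.146, so that longer genes tended to lie lower in both. These are correlations across genes, which are not independent replicates, and they are given as descriptions. Small RNA took 4.17 to 6.98% of reads in the Enza libraries and 4.82 to 6.97% in those with OSU and Enza. The transcription factor gene ZBTB16, a target of glucocorticoid and androgen, had a log2 fold change of -0.16 ± 0.034 for OSU added to Enza and was not called (limma adjusted p = 0.0515), while voom weights called it (adjusted p = 0.0470).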
